A study of Mus musculus with 26 samples.

Results

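Rab GTPases and the SNARE proteins of the VAMP and syntaxin families were examined as mRNAs in macrophages sorted from mouse mammary tumours. The genes were taken by symbol, as the Rab, Vamp and Stx rows of the count tables that also carry one of the authors' normalised log2 values. Of 19549 rows, 77 matched by symbol and 55 of them had such a value, comprising 38 Rab, 6 Vamp and 11 Stx genes. The log2 value exists only for rows with 0 counts in at most 3 libraries, so detection entered the choice. The other 22 matching rows, Vamp4 among them, had 0 counts in 4 to 13 polysome libraries and in 0 to 8 total mRNA libraries. Another 4 rows join a symbol of these families to a neighbouring gene, Rab5a and Rab2b among them, and were not counted as members because their reads cannot be divided.

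Rab proteins are small GTPases that switch between a GDP-bound form and a GTP-bound form on the membrane they label. In the GTP-bound form each Rab recruits tethers and motors to one class of vesicle, endosome or Golgi membrane. VAMPs on the vesicle then pair with syntaxins on the target membrane, and the zippering of this SNARE complex drives fusion. In macrophages these proteins serve phagosome maturation, lysosome fusion, receptor recycling, antigen presentation and the secretion of cytokines.

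The macrophages came from tumours grown from PyMT mammary cancer cells placed in the mammary gland of female FVB mice, 5 to 7 weeks old at injection, and were sorted as CD11b+ F4/80+ Ly6G- cells in cycloheximide, which holds ribosomes on mRNA. From each of 13 tumours a polysome library, of mRNA with 3 or more ribosomes, and a total mRNA library were made with SmartSeq2. There were 5 large tumours of 1504 to 2245 mg and 8 small tumours of 467 to 841.8 mg, divided here at 1000 mg, and the labels name 2 experimental batches. Batch 2 held 3 large and 3 small tumours, and batch 1 held 2 large and 5 small tumours. In batch 2 the titles name the 3 large tumours LR and the 3 small ones ER, without saying what this stands for, so size and that name cannot be told apart there, and batch 1 tumours carry T numbers. All mice shared the strain, and the labels name no treatment that differed between groups. Each tumour was grown from transplanted cells of one tumour model, and a sorted pool is a bulk sample, so fewer cells of a type and less RNA per cell cannot be told apart.

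Several of these proteins have a close relative whose mRNA is also measured. With both batches together, some pairs differed in how much of their mRNA was on polysomes, with the limits given further on. The coding bases round the P-loop, the phosphate-binding motif shared by small GTPases, are shown for 3 of these pairs. They show how far the mRNAs differ where the proteins are nearly the same. Capitals mark the bases that differ within a pair. The windows are spliced coding sequence of GENCODE M21 (GRCm38), 5′ to 3′ on the strand of the gene.
Rab5b: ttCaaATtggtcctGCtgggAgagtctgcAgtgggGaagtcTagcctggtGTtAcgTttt
Rab5c: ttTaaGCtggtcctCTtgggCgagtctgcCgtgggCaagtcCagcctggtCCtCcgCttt
Rab11a: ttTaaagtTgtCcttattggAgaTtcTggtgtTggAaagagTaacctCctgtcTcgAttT
Rab11b: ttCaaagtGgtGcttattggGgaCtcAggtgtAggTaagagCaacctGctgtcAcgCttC
Rab4a: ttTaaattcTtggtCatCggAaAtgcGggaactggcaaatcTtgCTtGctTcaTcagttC
Rab4b: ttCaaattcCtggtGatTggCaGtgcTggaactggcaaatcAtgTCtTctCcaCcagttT

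The Rab5b gene lies at chr10:128677175-128696264 (minus strand) and Rab5c at chr11:100715009-100738215 (minus strand). Rab11a lies at chr9:64715299-64737758 (minus strand) and Rab11b at chr17:33742484-33760530 (minus strand). Rab4a lies at chr8:123805985-123835287 (plus strand) and Rab4b at chr7:27168424-27178896 (minus strand). In the Rab11 window 13 of 60 bases differ, all 13 at the last position of a codon, and 20 of 20 codons give the same amino acid. The Rab5 window also differs at 13 of 60 bases, 10 of them at last positions, with 20 of 20 codons giving the same amino acid. The Rab4 window differs at 14 bases and in 1 of its 20 amino acids. Over the whole coding sequence Rab11a and Rab11b share 75.1% of aligned bases, Rab5b and Rab5c 76.5%, and Rab4a and Rab4b 73.2%. Stretches that pairs share could send a read to either gene, so single values of close relatives carry that uncertainty.

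Total counts were 7034173 to 28257436 in polysome libraries and 18018519 to 55609113 in total mRNA libraries, and the 55 members took 0.381 to 0.748% of the counts in polysome libraries and 0.442 to 0.768% in total mRNA libraries. The labelled cell type was checked against 8 macrophage markers, all 8 of which had a median above 1 CPM in polysome and total mRNA of large and small tumours. Their summed share was 0.187 to 1.93% in polysome libraries and 0.738 to 4.0% in total mRNA libraries. Small replicate 7, of batch 2, stood apart. It had the lowest macrophage shares (0.187% in polysomes and 0.738% in total mRNA) and the highest shares of 8 fibroblast markers (0.354% and 0.398%) and of 8 epithelial or tumour cell markers (0.123% and 0.468%). In the other 12 tumours fibroblast markers reached 0.0699% in polysomes and 0.271% in total mRNA, in both cases in small replicate 1, and epithelial markers 0.0414% and 0.0630%. Neutrophil, T and NK cell and endothelial markers each summed to at most 0.0221% of any library, and Camp, a neutrophil granule gene, was at 0 in every polysome library.

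Levels were compared as means per kilobase of the joined exons of a gene. The most abundant members were Rab1b, which acts between the endoplasmic reticulum and the Golgi, and Vamp8, a SNARE of late endosomes and lysosomes, with Rab32, Rab5c and Rab7. Rab1b averaged 364 CPM per kb in polysomes and 280 CPM per kb in total mRNA. Its mean in total mRNA was drawn up by batch 2. There it had 1079 ± 726 CPM (SD, n = 6), against 256 ± 32.7 CPM in batch 1 (SD, n = 7), and its median over 13 tumours was 293 CPM. In polysomes Rab32, a Rab of lysosome-related organelles, and Vamp8 followed with 191 and 174 CPM per kb, where total mRNA had 69.2 and 126 CPM per kb. In total mRNA the order of the means was different. Rab5c, an early endosome Rab, and Rab7, which drives late endosome maturation, came next there with 173 and 171 CPM per kb, against 68.3 and 54.8 CPM per kb in polysomes. In total mRNA the level of Rab5c was 379 ± 309 CPM and that of Rab7 447 ± 109 CPM (SD, n = 13). This differed by batch. In batch 1 Rab5c had 203 ± 26.3 CPM and Rab7 459 ± 72.6 CPM (SD, n = 7), without overlap. In batch 2 Rab5c had 584 ± 368 CPM and Rab7 433 ± 147 CPM (SD, n = 6). The order of these 2 genes was not tested.

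Polysome and total mRNA were compared within each tumour, which asks how much of an mRNA was loaded with several ribosomes relative to other mRNAs. Among the 55 members, 16 were higher in polysomes (29.1%), 24 were lower (43.6%) and 15 passed in neither direction (edgeR quasi-likelihood test, adjusted p below 0.05 over 12109 genes). Of all genes tested, 22.6% were higher and 34.0% were lower. The same shares stand beside the counts by membrane given below, which were not tested as sets. The median log2 fold was −0.38 over the members and −0.34 over all genes, so the members' median lay close to that of all genes. Each fold was tested against 0 and not against this median, so a small negative fold may be that of a typical gene. The 38 Rabs had a median log2 fold of 0.04, with 12 higher and 15 lower. The 17 SNAREs had a median of −0.63, with 4 higher and 9 lower. Members had to have 0 counts in at most 3 libraries, a rule that the genes tested as a whole did not have to meet. Matching rows that it left out had their zeros mostly in polysome libraries. These medians and counts therefore describe only the widely detected genes of the families, and how far the rule moved them was not tested. DESeq2 called 19 members higher (26.5% of all genes) and 24 lower (35.7%). Without small replicate 7 the edgeR counts were 18 higher (23.9% of all genes) and 21 lower (31.5%). With the trend of each library on transcript GC content and length removed they were 17 higher (20.1% of all genes) and 21 lower (32.2%). In batch 2 alone 10 members were higher, where 14.0% of all genes were, and 11 lower, where 15.9% were. In batch 1 alone 15 members were higher (all genes 21.3%) and 25 lower (27.9%). Of the 40 members called in both batches together, 21 did not pass in batch 2 alone, 3 of them with the opposite sign, and 6 did not pass in batch 1 alone, 1 of them with the opposite sign.

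**Figure D1:**
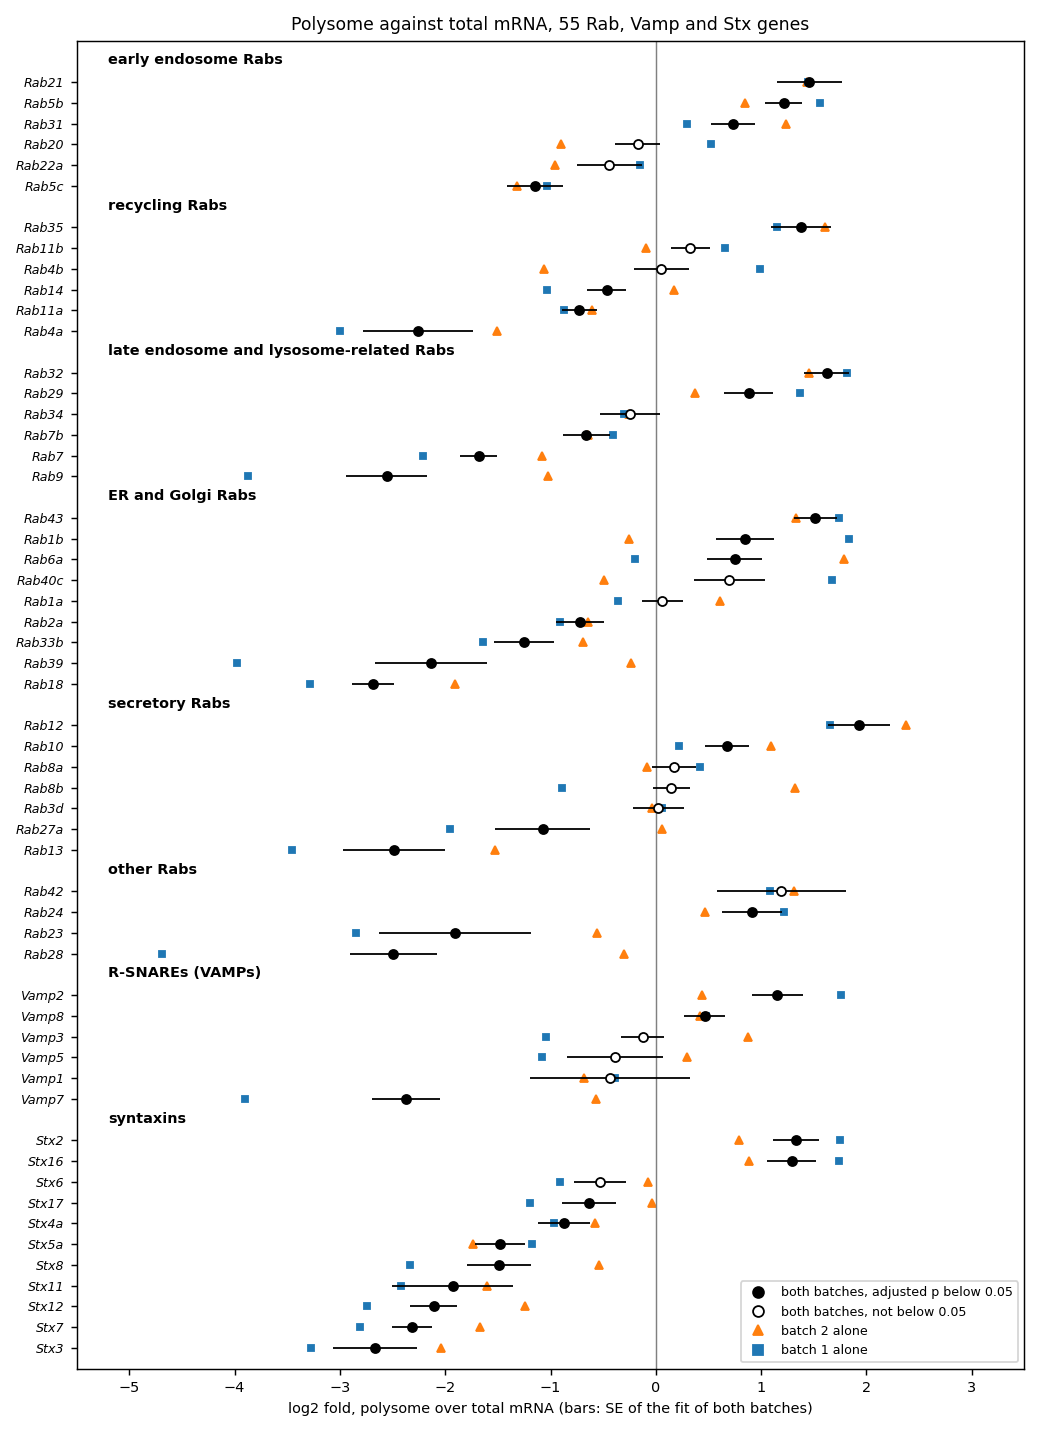
Log2 fold of polysome over total mRNA for the 55 members, grouped by the membrane they serve. Circles are the fit of both batches with SE bars (filled where the adjusted p was below 0.05), triangles batch 2 alone and squares batch 1 alone. Folds run between −2.69 for Rab18 and 1.93 for Rab12, and 9 of 11 syntaxins lie below 0, as do 7189 of all 12109 genes tested.

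The early endosome Rabs were divided, with 3 of 6 higher in polysomes, 1 lower and 2 in neither direction. Rab5b, which with its relatives promotes fusion of early endosomes, had 73.2, 201 and 410 CPM in polysomes (lowest, median and highest of 13) against 47.7, 86.6 and 121 CPM in total mRNA. It was higher in polysomes in 13 of 13 tumours, although the ranges overlapped, and rose by 1.21 ± 0.18 on the log2 scale (SE, edgeR adjusted p = 2.44e-06). Its relative Rab5c went the other way, with 51.9, 127 and 344 CPM in polysomes against 119, 212 and 1021 CPM in total mRNA, also overlapping. Rab5c fell by 1.15 on the log2 scale (SE 0.27, edgeR adjusted p = 0.000743) and was higher in polysomes in 2 of 13 tumours. Rab21, which carries integrins through early endosomes, rose by 1.46 ± 0.31 (edgeR adjusted p = 0.000268), and Rab31, which works between the trans-Golgi network and endosomes, rose by 0.73 ± 0.21 (edgeR adjusted p = 0.00444). Rab20, a Rab of macrophage phagosomes, had a log2 fold of −0.17 and Rab22a, of early and recycling endosomes, −0.44, and neither passed. With the GC and length trend removed Rab22a did pass, at −0.89 (edgeR adjusted p = 0.0226).

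Of the 6 recycling Rabs, Rab35 was higher in polysomes, Rab4a, Rab11a and Rab14 were lower, and Rab4b (0.05) and Rab11b (0.33) passed in neither direction. Rab11b did pass by DESeq2, at 0.40 (adjusted p = 0.0476), and by edgeR in batch 1 alone, at 0.65 (0.0106), or without small replicate 7 (0.0365). Rab35, which returns receptors from endosomes to the plasma membrane, had 11.6, 22.3 and 55.6 CPM in polysomes against 5.71, 7.65 and 55.3 CPM in total mRNA. It rose by 1.38 ± 0.28 (SE, edgeR adjusted p = 0.000193), with 12 of 13 tumours higher in polysomes. Rab4a, a Rab of the fast recycling route, had 0, 2.52 and 27.0 CPM in polysomes against 7.05, 9.18 and 41.6 CPM in total mRNA, with 2 polysome libraries at 0 counts. It was lower in polysomes in each of the 13 tumours and fell by 2.26 on the log2 scale (SE 0.52, edgeR adjusted p = 0.000633). Rab11a, the main Rab of the recycling endosome, fell by 0.73 (SE 0.17, edgeR adjusted p = 0.000642) with 74.4, 118 and 308 CPM in polysomes against 142, 227 and 442 CPM in total mRNA. This direction turned when the GC and length trend was removed, which gave Rab11a a log2 fold of 0.62 (edgeR adjusted p = 0.0036). Rab14, of endosome to Golgi traffic, had −0.47 (edgeR adjusted p = 0.0331) and likewise turned to 0.37 with that correction. Its call was lost on leaving out any 1 of 7 tumours, with adjusted p-values of 0.0576 to 0.143.

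Rabs of late endosomes and lysosome-related organelles held both a strong gain and strong losses, with 2 of 6 higher and 3 lower. Rab32, which serves lysosome-related organelles, had 109, 425 and 914 CPM in polysomes against 32.1, 149 and 481 CPM in total mRNA. It rose by 1.62 ± 0.21 (SE, edgeR adjusted p = 6.87e-07), with 12 of 13 tumours higher in polysomes. Rab7 had 71.7, 111 and 268 CPM in polysomes against 282, 424 and 660 CPM in total mRNA. The ranges did not overlap, each tumour was lower in polysomes, and Rab7 fell by 1.68 on the log2 scale (SE 0.17, edgeR adjusted p = 1.63e-08). Rab9, which returns mannose 6-phosphate receptors from late endosomes to the Golgi, had 0.0917, 7.63 and 13.6 CPM in polysomes against 14.9, 33.2 and 50.4 CPM in total mRNA. It too showed no overlap and fell by 2.56 (SE 0.38, edgeR adjusted p = 3.63e-06). Rab29, a relative of Rab32, rose by 0.88 ± 0.23 (edgeR adjusted p = 0.00214), and Rab7b fell by 0.66 (SE 0.22, edgeR adjusted p = 0.0134), a call lost without large replicate 3 (0.0646) or large replicate 4 (0.0669). Rab34, which positions lysosomes, had −0.25 and did not pass.

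Among the 9 Rabs of the endoplasmic reticulum and Golgi, 3 were higher in polysomes and 4 lower. Rab43, of the Golgi, had 20.1, 60.5 and 118 CPM in polysomes against 14.1, 24.2 and 40.9 CPM in total mRNA. The ranges overlapped, but all 13 tumours were higher in polysomes and Rab43 rose by 1.52 ± 0.21 (SE, edgeR adjusted p = 9.93e-07). Rab18, of the endoplasmic reticulum and lipid droplets, had the lowest fold of all members. Its level was 5.78, 19.9 and 53.9 CPM in polysomes against 51.6, 117 and 173 CPM in total mRNA, lower in polysomes in each of 13 tumours, with ranges that met only at their ends. Rab18 fell by 2.69 (SE 0.20, edgeR adjusted p = 1.84e-10). Rab39 fell by 2.13 (edgeR adjusted p = 0.00149), Rab33b, of the Golgi, by 1.25 (0.000538) and Rab2a, of ER to Golgi traffic, by 0.72 (0.0097), of which Rab2a turned to 0.26 after the GC and length correction and Rab39 had −1.09 and no longer passed (0.0918). In batch 2 alone Rab39 had −0.23 (0.876). Its level was low, with 0.0820, 2.03 and 8.39 CPM in polysomes against 1.10, 10.2 and 15.2 CPM in total mRNA. Rab1b rose by 0.85 ± 0.27 (edgeR adjusted p = 0.0106) and Rab6a, of the Golgi, by 0.75 ± 0.26 (0.0162), and both differed strongly between batches, as described further on. Without large replicate 3 the log2 fold of Rab6a was 0.46 (edgeR adjusted p = 0.0556), and with the GC and length trend removed that of Rab1b was 0.44 (0.0847). Rab1a had 0.06 and did not pass, but reached 1.23 (adjusted p = 2.93e-06) after the GC and length correction. Rab40c had 0.70 and did not pass in the main fit. It passed by DESeq2, at 0.77 (adjusted p = 0.0266), and by edgeR in batch 1 alone, at 1.67 (0.00107), or on leaving out any 1 of 4 tumours (0.0144 to 0.0453).

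**Figure D2:**
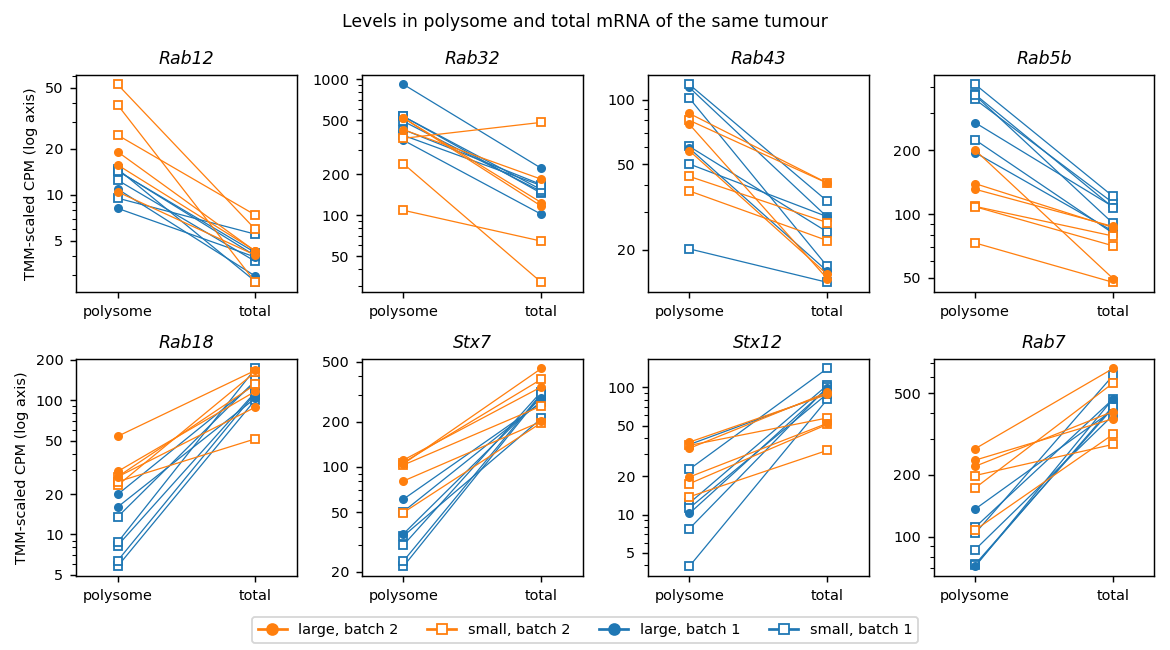
TMM-scaled CPM of 8 members on a log axis, in polysome and total mRNA of the same tumour (lines join the 2 libraries of a tumour). Circles are large and squares small tumours, with batch 2 in orange and batch 1 in blue. Rab12, Rab43 and Rab5b are higher in polysomes in all 13 tumours, and Rab18, Stx7, Stx12 and Rab7 are lower in all 13.

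Secretory Rabs had 2 of 7 members higher, 2 lower and 3 in neither direction. Rab12, which directs transferrin receptor to lysosomes and is a substrate of the kinase LRRK2, had the highest fold of all members, 1.93 ± 0.30 (SE, edgeR adjusted p = 5.22e-06). Its level was 8.17, 14.4 and 52.6 CPM in polysomes against 2.69, 4.04 and 7.37 CPM in total mRNA, with no overlap. Rab10, of exocytosis and Golgi to plasma membrane traffic, rose by 0.68 ± 0.21 (edgeR adjusted p = 0.00715). Rab13, of traffic to the plasma membrane, fell by 2.49 (edgeR adjusted p = 0.000109), from few reads, with 0, 1.96 and 7.49 CPM in polysomes against 5.05, 8.20 and 36.6 CPM in total mRNA. Rab27a, which docks secretory lysosomes and exosome-releasing compartments, had −1.07 (edgeR adjusted p = 0.0460), and its call was lost on leaving out any 1 of 6 tumours (0.0563 to 0.138). With the GC and length trend removed Rab27a had −0.67 and did not pass either (0.21). Rab8a (0.17), Rab8b (0.15) and Rab3d (0.02) did not pass, but Rab8b did with that correction, at 0.72 (edgeR adjusted p = 0.000225). Of the 4 remaining Rabs, Rab24, linked to autophagy, rose by 0.91 ± 0.28 (edgeR adjusted p = 0.00848), Rab28 fell by 2.49 (1.36e-05) and Rab23 by 1.91 (0.0266), and Rab42 (1.19) did not pass. Rab24 no longer passed with the GC and length trend removed, at 0.62 (adjusted p = 0.0541), or in batch 2 alone, at 0.46 (0.388). Rab23 too had few reads, with 0, 1.91 and 8.04 CPM in polysomes against 2.31, 4.90 and 12.2 CPM in total mRNA.

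Of the 6 VAMPs, Vamp2 and Vamp8 were higher in polysomes, Vamp7 was lower, and Vamp1, Vamp3 and Vamp5 passed in neither direction. Vamp7, a SNARE of late endosomes and secretory lysosomes, had 1.46, 5.02 and 20.6 CPM in polysomes against 11.5, 40.2 and 97.9 CPM in total mRNA. It was higher in polysomes in 2 tumours only, and fell by 2.37 on the log2 scale (SE 0.32, edgeR adjusted p = 8.71e-07). Vamp2, a SNARE of secretory vesicles, had 7.42, 36.6 and 56.9 CPM in polysomes against 8.53, 12.1 and 27.0 CPM in total mRNA, and rose by 1.15 ± 0.24 (edgeR adjusted p = 0.000261) in 12 of 13 tumours. Vamp8 rose by 0.46 ± 0.19 (edgeR adjusted p = 0.0440), a call lost on leaving out any 1 of 7 tumours (0.0586 to 0.122). It was also lost with the GC and length trend removed, at 0.28 (0.115). Vamp3, of recycling endosomes and the phagocytic cup, had −0.13 and turned to 0.86 (adjusted p = 0.00066) after the GC and length correction. Vamp1 (−0.44) and Vamp5 (−0.38), both of low level with means under 10 CPM, did not pass.

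Of 11 syntaxins, 8 were lower in polysomes and 2 higher, where 34.0% of all genes tested were lower and 22.6% higher. Their median log2 fold was −1.48, against −0.34 over all genes tested. The syntaxins were not tested as a set. Stx7, a syntaxin of late endosomes, had 21.8, 50.4 and 111 CPM in polysomes against 196, 289 and 451 CPM in total mRNA. The ranges did not overlap and Stx7 fell by 2.32 (SE 0.19, edgeR adjusted p = 5.53e-10). Stx12, of recycling endosomes, had 3.92, 17.5 and 37.0 CPM in polysomes against 31.9, 88.7 and 140 CPM in total mRNA, and fell by 2.11 (SE 0.22, edgeR adjusted p = 2.28e-08). Stx3, a plasma membrane syntaxin of granule secretion, fell by 2.66 (SE 0.40, edgeR adjusted p = 3.88e-06) with 0, 2.29 and 15.4 CPM in polysomes against 6.17, 13.7 and 46.8 CPM in total mRNA. Each of these 3 genes was lower in polysomes in all 13 tumours, as were Stx5a, the Golgi syntaxin, and Stx11, a syntaxin of cytotoxic and phagocytic cells. Stx5a fell by 1.48 (edgeR adjusted p = 9.98e-06) and Stx11 by 1.93 (0.00603). The fall of Stx11 came from few reads, with 0, 1.33 and 5.06 CPM in polysomes against 1.10, 5.92 and 12.3 CPM in total mRNA. Stx8, a late endosome SNARE, fell by 1.49 (0.000204), Stx4a, of the plasma membrane, by 0.87 (0.00404) and Stx17, of autophagosomes, by 0.63 (0.0387).

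Stx2, a plasma membrane syntaxin, and Stx16, of the trans-Golgi network, were the 2 syntaxins that rose. Stx2 had 28.9, 73.6 and 139 CPM in polysomes against 14.8, 17.6 and 112 CPM in total mRNA, and rose by 1.33 ± 0.22 (SE, edgeR adjusted p = 1.09e-05). Stx16 had 16.8, 44.2 and 96.0 CPM in polysomes against 8.0, 11.9 and 40.9 CPM in total mRNA, and rose by 1.29 ± 0.23 (edgeR adjusted p = 3.74e-05). Each was higher in polysomes in 12 of 13 tumours, with ranges that overlapped. In batch 2 alone neither passed, with 0.79 for Stx2 (edgeR adjusted p = 0.058) and 0.88 for Stx16 (0.0601). Stx6, of the trans-Golgi network and early endosomes, had −0.53 (adjusted p = 0.0729) and passed on leaving out small replicate 8 (0.0363) or large replicate 3 (0.00683) and without the replicate block (0.0387). It also passed in batch 1 alone, at −0.91 (0.00705), and with the GC and length trend removed, at −0.97 (0.00207).

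Close relatives were then compared directly, as the difference between both genes in polysome-minus-total log2 CPM within a tumour. Of 10 pairs, 6 differed after adjustment over the 10 pairs (exact two-sided sign-flip permutation test over 13 tumours, smallest possible p = 0.000244). Rab5b minus Rab5c was 2.51 ± 1.42 (SD, n = 13, permutation adjusted p = 0.00366), with Rab5b the higher in 12 of 13 tumours. Polysome-minus-total log2 CPM was 1.24 ± 0.58 for Rab5b and −1.27 ± 1.24 for Rab5c. Rab11a minus Rab11b was −1.11 ± 0.79 (permutation adjusted p = 0.00366, n = 13), and Rab11b was the higher in 12 tumours. With the GC and length trend removed the log2 fold was 0.62 for Rab11a and −0.13 for Rab11b, so the order of this pair turned, and their transcripts have 39.5% and 48.1% GC. Rab4a minus Rab4b was −2.80 ± 3.24 (permutation adjusted p = 0.0107, n = 13), with −8.97 in the lowest and 2.02 in the highest tumour. Rab4a had 0 polysome counts in 2 batch 1 tumours, whose values depend on the prior count.

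Rab7 minus Rab7b was −1.10 ± 0.94 and Vamp7 minus Vamp8 −2.85 ± 2.36 (permutation adjusted p = 0.00672 for each, n = 13), and Rab22a minus Rab31 was −1.33 ± 1.93 (0.0228). Vamp2 minus Vamp3 was 1.28 ± 2.02 (0.0631), Rab1a minus Rab1b −0.73 ± 2.41 (0.36), Rab8a minus Rab8b −0.08 ± 1.90 (0.879) and Stx7 minus Stx12 −0.18 ± 0.81 (0.497). These 4 missed the threshold, which does not show that their genes were alike. In batch 2 alone the difference was 2.18 for Rab5b minus Rab5c (p = 0.0938), −0.51 for Rab11a minus Rab11b (0.0938), −0.46 for Rab4a minus Rab4b (0.5) and −0.99 for Vamp7 minus Vamp8 (0.344) by the same exact permutation test. There 6 tumours allow no p under 0.0312, and no pair passed after adjustment. In batch 1 alone the same differences were 2.80, −1.62, −4.81 and −4.44, each with an exact permutation p = 0.0156, the smallest that 7 tumours allow. Rab1a minus Rab1b was 0.91 in batch 2 and −2.14 in batch 1, Rab8a minus Rab8b −1.39 and 1.04, and Vamp2 minus Vamp3 −0.43 and 2.74, so the batch means of these pairs had opposite signs. In batch 2 the tumours of each of these pairs lay on both sides of 0 (exact permutation p = 0.4062, 0.1875 and 0.6875). There Vamp2 minus Vamp3 ran from −3.48 in small replicate 7 to 0.95 in large replicate 4. Stx7 minus Stx12 was −0.43 in batch 2 and 0.03 in batch 1.

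**Figure D3:**
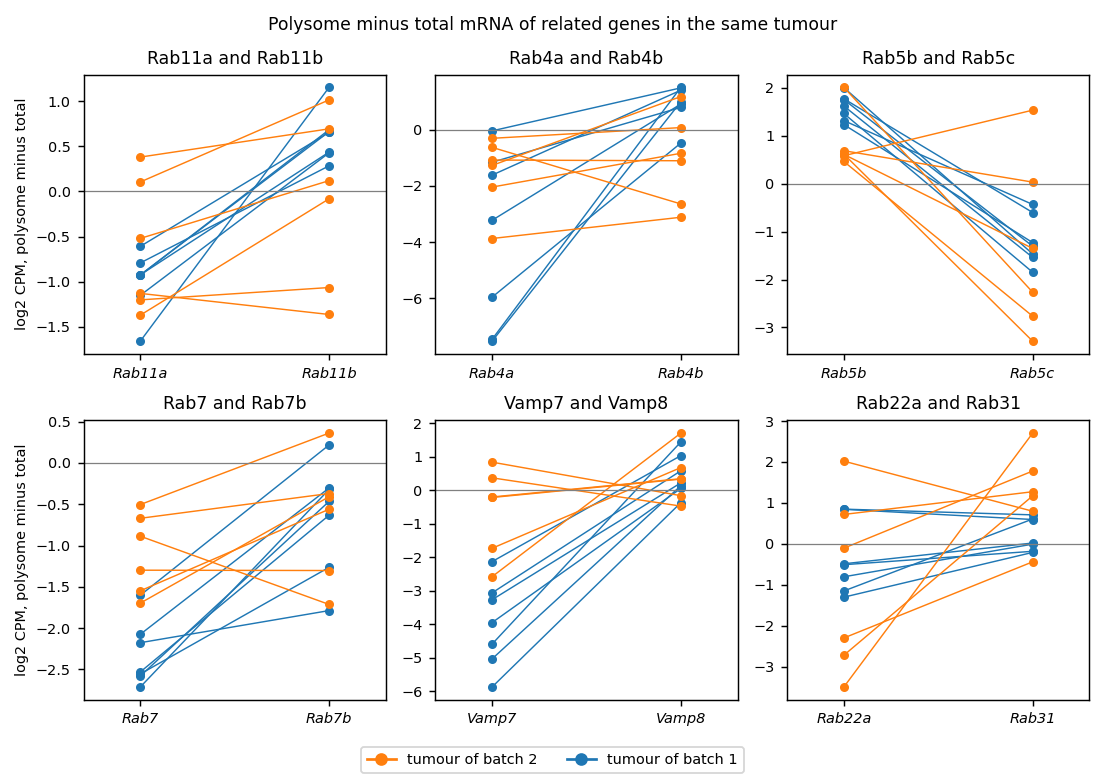
Polysome-minus-total log2 CPM of related genes in the same tumour for the 6 pairs that differed, with batch 2 in orange and batch 1 in blue. Rab5b lies above Rab5c in 12 of 13 tumours and Rab11b above Rab11a in 12 of 13. In Rab22a and Rab31 the widest differences are in batch 2.

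The experimental batches differed in the polysome to total fold of these genes. The fold was higher in batch 2 than in batch 1 for 13 members (23.6%, where 10.5% of all genes were) and lower for 5 members (9.09%, where 6.95% were), by the edgeR interaction test over 12109 genes. Rab28, linked to cilia, had 4.37, 6.88 and 14.7 CPM in polysomes against 4.89, 7.49 and 41.6 CPM in total mRNA in batch 2 (lowest, median and highest of 6). In batch 1 it had 0.127, 0.820 and 4.65 CPM in polysomes against 18.4, 22.6 and 26.8 CPM in total mRNA (7 tumours). Polysome and total mRNA thus overlapped in batch 2 and were well apart in batch 1, and the fold was higher in batch 2 by 4.28 ± 0.80 (SE, edgeR adjusted p = 0.000616).

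Vamp7 had 4.66, 14.8 and 20.6 CPM in polysomes against 11.5, 15.7 and 51.7 CPM in total mRNA in batch 2, and 1.46, 2.84 and 8.07 CPM against 35.6, 48.9 and 97.9 CPM in batch 1. Its fold was higher in batch 2 by 3.60 ± 0.62 (edgeR adjusted p = 0.000318). The fold of Rab9 was higher in batch 2 by 3.02 ± 0.74 (0.00593), although its polysome and total mRNA did not overlap in either batch. For Rab8b, a secretory Rab, the direction itself was opposite. It had 132, 227 and 279 CPM in polysomes against 24.9, 87.0 and 204 CPM in total mRNA in batch 2, and 57.1, 132 and 178 CPM against 177, 206 and 251 CPM in batch 1. The log2 fold of Rab8b was 1.32 in batch 2 (adjusted p = 0.0054) and −0.89 in batch 1 (0.00217), a difference of 2.32 ± 0.36 (0.000111), and the values of the 2 batches did not overlap. Rab6a (2.08 ± 0.50, 0.00551) and Vamp3 (1.96 ± 0.42, 0.00197) also had batch values that did not overlap.

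Rab40c, which recruits a ubiquitin ligase, Rab1b and Rab4b went the other way, with folds lower in batch 2. Rab1b had 391, 786 and 880 CPM in polysomes against 201, 1126 and 1967 CPM in total mRNA in batch 2, and 338, 1058 and 1235 CPM against 209, 259 and 299 CPM in batch 1. Its total mRNA was thus far more variable in batch 2. The difference of the fold was −2.33 ± 0.55 for Rab1b (edgeR adjusted p = 0.00419), −2.34 ± 0.69 for Rab40c (0.0191), −2.26 ± 0.53 for Rab4b (0.00431), −1.50 ± 0.43 for Rab20 (0.0173) and −1.45 ± 0.48 for Vamp2 (0.0394). Rab4b had a log2 fold of −1.06 in batch 2 (0.0447) and 0.99 in batch 1 (0.00277). The calls of Rab40c and Rab20 were lost without small replicate 6 (edgeR adjusted p = 0.104 and 0.0795) or small replicate 7 (0.0894 and 0.0584). That of Vamp2 was lost without the replicate block (0.0538) and on leaving out any 1 of 6 small tumours, replicates 1, 2, 3, 4, 6 and 7 (0.0578 to 0.143). Without small replicate 7, 11 members were higher (7.21% of all genes) and 2 lower (4.99%) in batch 2, and without small replicate 6, 10 higher (6.94%) and 2 lower (4.55%), so the counts over all genes fell too.

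GC content of the transcript ran along with this batch difference. Across the 54 members with a GENCODE transcript, the batch difference of the fold had a Pearson r of −0.57 and a Spearman rho of −0.57 with transcript GC content. Over 11091 genes these were −0.34 and −0.38. In batch 2 alone the fold of the members had an r of 0.01 with GC content, and in batch 1 alone 0.43. Over all genes with a transcript the r was 0.16 in batch 2 alone and 0.39 in batch 1 alone. These values describe genes that share the same libraries, and genes are not independent replicates. With the trend on GC content and length removed, 8 members were higher in batch 2 (7.69% of all genes) and 4 lower (5.37%), and Rab28, Rab9, Rab8b, Rab6a, Vamp3, Rab7, Stx8, Rab1b, Rab4b and Rab20 were still called. Vamp7 was called too, but it had no GENCODE transcript and was not corrected. Rab29 was called after the correction alone, as lower in batch 2 (−1.36, adjusted p = 0.0335, against 0.101 without it). The part of sequence composition in the rest was not tested. Median GC content was 50.1% in the 16 members higher in polysomes, 46.6% in 23 of the lower ones and 51.8% in the 15 others.

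**Figure D4:**
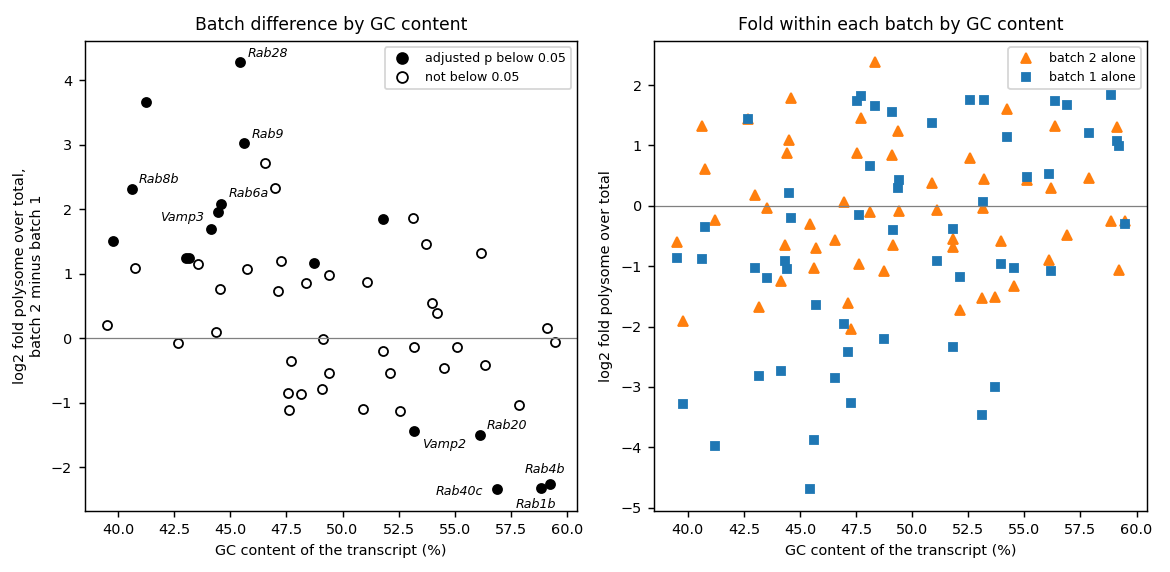
Left, the difference of the log2 polysome to total fold (batch 2 minus batch 1) against GC content of the transcript for 54 members, filled where the adjusted p was below 0.05. Right, the fold within batch 2 (triangles) and batch 1 (squares) against GC content. The points on the left fall with GC content (r = −0.57), and those of batch 2 on the right show no slope (r = 0.01, where all genes had 0.16).

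Large and small tumours were compared separately in polysome and total mRNA, with a term for batch. No member and no other gene passed after adjustment in either source by edgeR. In polysome mRNA of large against small tumours 7 members were higher and 2 lower at an unadjusted p below 0.05, against 7.20% and 5.26% of 10933 genes. DESeq2 with adjustment called 92 genes higher (0.841%) and 60 lower (0.549%), with 1 member higher, Rab20. Unadjusted, DESeq2 had 8 members higher (7.35% of genes) and 3 lower (8.09%). In total mRNA 0 members were higher and 3 lower at an unadjusted p below 0.05, against 1.46% and 3.15% of 11671 genes, and DESeq2 with adjustment called 0 genes. Unadjusted, DESeq2 had 338 genes higher (2.90%) and 522 lower (4.47%), of which 1 and 5 were members.

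Rab20 polysome mRNA was 106, 69.4, 44.7, 47.3 and 43.9 CPM in the 5 large tumours and 7.47, 27.7 and 38.1 CPM (lowest, median and highest) in the 8 small tumours. The groups did not overlap, and the log2 fold of 1.62 ± 0.33 (SE) had an edgeR adjusted p of 0.113 and an unadjusted p of 0.000109, with 0.00525 adjusted by DESeq2. Without small replicate 5 the edgeR adjusted p was 0.0477. In total mRNA Rab20 was 60.4, 33.0, 73.3, 50.7 and 20.5 CPM in large tumours and 18.9, 36.2 and 69.5 CPM in small tumours, which overlapped fully (0.22 ± 0.32). After Rab20, the members with the lowest p in polysomes were Rab11a and Stx6 among positive log2 folds (0.80 ± 0.29 and 0.93 ± 0.34) and Stx16 and Rab12 among negative ones (−0.90 ± 0.36 and −0.86 ± 0.35), none of which passed. In total mRNA Rab22a (−1.55 ± 0.54), Rab2a (−1.49 ± 0.48) and Stx2 (−0.93 ± 0.33) had the lowest p among negative log2 folds, and Rab39 (0.99 ± 0.48), Rab8b (0.69 ± 0.38) and Rab1a (0.50 ± 0.35) had it among positive ones, again without passing.

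The difference of the size effect between polysome and total mRNA was tested as an interaction, which asks whether polysome loading differed with tumour size. No gene passed by edgeR, while 9 members were higher and 3 lower in large tumours at an unadjusted p below 0.05, against 6.17% and 5.27% of 12109 genes. DESeq2 with adjustment called 76 genes higher (0.628%) and 53 lower (0.438%), with Rab22a as the 1 member higher and Rab8b as the 1 member lower. Unadjusted, DESeq2 had 11 members higher (8.19% of genes) and 3 lower (7.89%). The median of this difference was 0.39 over the 55 members, with 39 above 0, and 0.55 over the 38 Rabs, with 29 above 0, beside −0.06 over all genes. The 17 SNAREs had a median of 0.17. These medians are descriptions of genes measured in the same libraries and carry no test.

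Rab22a had a difference of 2.31 ± 0.64 (SE, edgeR adjusted p = 0.3, unadjusted p = 0.00133, DESeq2 adjusted p = 0.0293). Its total mRNA was 5.40, 8.48, 8.99, 6.56 and 14.3 CPM in large tumours and 6.32, 8.62 and 124 CPM in small tumours. Its polysome mRNA was 9.76, 5.95, 14.8, 26.8 and 13.3 CPM in large tumours and 3.06, 5.98 and 16.5 CPM in small tumours. The groups overlapped in each source. The difference was 3.71 in batch 2 alone and 0.78 in batch 1 alone, neither of which passed. Rab24 (1.67 ± 0.58), Rab20 (1.49 ± 0.44), Rab8b (−1.25 ± 0.36), Rab39 (−2.85 ± 1.09) and Stx16 (−1.12 ± 0.47) did not pass by edgeR either.

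**Figure D5:**
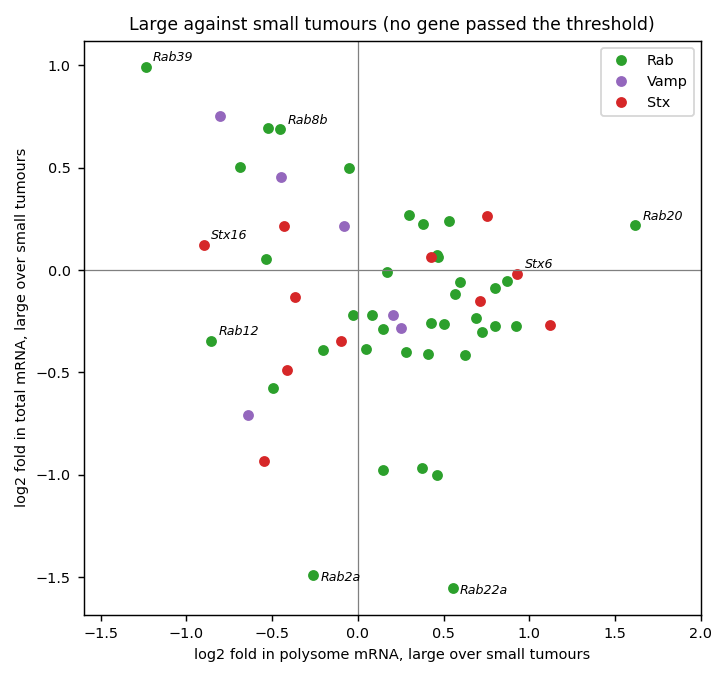
Log2 fold of large over small tumours in polysome mRNA (horizontal axis) and in total mRNA (vertical axis) for 38 Rab, 6 Vamp and 11 Stx genes. No gene passed after adjustment by edgeR. Rab20 lies farthest to the right at 1.62, with 0.22 in total mRNA.

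Each list of genes that act on Rabs and SNAREs held members higher and members lower in polysomes, and the lists were not tested against each other or against the 22.6% of all genes higher and 34.0% lower. Of 26 genes tested from the list of Rab GTPase-activating proteins, a family that switches Rabs off, 10 were higher in polysomes and 4 lower, with a median log2 fold of 0.41. Not every protein of this list need have that activity. Tbc1d13 rose by 2.13 ± 0.23 (SE, edgeR adjusted p = 2.86e-08), at a level of 335 ± 86 CPM in polysome libraries and 94.9 ± 90 CPM in total mRNA libraries (SD, n = 13), and Tbc1d20 by 2.13 ± 0.26 (1.65e-07), while Tbc1d23 fell by 1.84 (9.19e-07). Of 23 exchange factors tested, which switch Rabs on, 8 were higher and 4 lower, with Dennd5a at 2.01 ± 0.21 (1.89e-08), Dennd4b at 1.92 ± 0.21 (4.31e-08) and Dennd1b at 1.79 ± 0.25 (1.82e-06). Both lists had medians above that of all genes, at 0.41 and 0.23 beside −0.34.

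Of 7 genes for prenylation, membrane extraction and other binding of Rabs, 5 were lower and 1 higher. Chm, the Rab escort protein needed for prenylation, fell by 2.81 (SE 0.50, edgeR adjusted p = 4e-05), at a level of 5.01 ± 4.93 CPM in polysome libraries and 23.2 ± 8.4 CPM in total mRNA libraries (SD, n = 13). Rabac1, which releases Rabs from their dissociation inhibitor, rose by 0.97 ± 0.19 (0.000101), and Rabif fell by 1.54 (6.15e-05). Of 25 effectors and tethers, 10 were lower and 3 higher, with Vps41, a subunit of the HOPS tether that acts with Rab7, at −2.39 ± 0.24 (1.49e-08), Exoc7, of the exocyst, at −1.77 ± 0.22 (2.36e-07) and Plekhm1, a Rab7 effector, at 2.27 ± 0.21 (3.09e-09). Of 17 SNARE regulators 7 were lower and 3 higher, with Scfd1, which binds the Golgi syntaxin, at −2.96 ± 0.27 (2.83e-09), Vps33b at −2.90 ± 0.42 (2.11e-06) and Stxbp3 at −1.52 ± 0.30 (0.000124). Of 13 other SNARE proteins 3 were lower and 4 higher, among them Bet1, of ER to Golgi traffic, at −2.30 ± 0.27 (1.42e-07), Snap23, the plasma membrane partner of syntaxins and VAMPs, at −2.19 ± 0.21 (7.63e-09) and Bet1l, a Golgi SNARE, at 1.99 ± 0.17 (1.04e-09).

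Of the 22 rows left out for their zeros, 14 passed the filter of the same fit. Their zeros lay mostly in polysome libraries and chose these rows, so no call is drawn from them. Vamp4, a SNARE of the trans-Golgi network, had 2.77 ± 4.18 CPM in polysome libraries and 19.7 ± 9.27 CPM in total mRNA libraries (SD, n = 13). Of the 4 joined rows, those with Rab5a (−1.27 ± 0.28), Rab2b (−1.06 ± 0.17) and Stx18 (−1.84 ± 0.29) were lower in polysomes and that with Rab3a (0.78 ± 0.19) was higher, each with an edgeR adjusted p of at most 0.00117, but these reads may belong to the neighbouring gene.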

How the data were processed

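Per the labels, each of 13 tumours gave a polysome and a total mRNA library made with SmartSeq2, which does not mark strand, so reads of overlapping genes on opposite strands cannot be told apart. The submitters' processing notes name the aligners HISAT and HISAT2, the package limma and the build mm10. How reads were counted, with which annotation and strand setting, is not given in the sources used. The authors deposited, for each library, 19549 rows with whole-number read counts and a column of normalised log2 values that is empty for rows with 0 counts in more than 3 libraries (10472 rows have one). In 830 rows the authors joined several gene names. The deposited log2 column served only to choose members.

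Counts were filtered with filterByExpr, TMM-scaled and fitted with edgeR's robust quasi-likelihood test (version 4.0.16, R 4.3.3), with Benjamini-Hochberg adjustment over all genes tested and a threshold of 0.05. Polysome against total mRNA, its interaction with size class and that with batch came from 1 fit over 26 libraries with the tumour as a block. The tumour's weight is the label that both libraries share, and both came from 1 sorted population. As a check, deviations from group means correlated with a median r of 0.249 for libraries of the same tumour (at least 0.0372) and −0.0167 for those of different tumours. Size was tested in polysome and in total mRNA apart, adjusted for batch. CPM values are TMM-scaled, and per-tumour differences use log2 CPM with a prior count of 1. Levels per kb divide mean CPM by the joined length of all exons of the gene in GENCODE M21 (54 of 55 members matched, and Vamp7 did not). GC content and the length used in the trend are those of 1 GENCODE M21 transcript per gene. The fits were tested on simulated data. Alternatives were RLE scaling, no filter, DESeq2 1.42.0, no replicate block, each batch alone, log2 weight in place of size class, no batch term, and leaving out each tumour. Removal of the GC and length trend per library was added after seeing the data (91.6% of genes had a transcript, and the others stayed uncorrected). Precision is limited by the number of tumours and, for members under a few CPM, by counts.

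Named members were the 8 with the largest folds in each direction among called members that averaged 10 CPM or more and kept their sign in each batch, up to 6 in each direction for the batch difference, the 3 with the lowest p in each size comparison and direction, the 5 of highest level per kb, the 10 pairs and a panel of macrophage trafficking genes. Other members are given by fold. Size classes, members, pairs and lists were chosen with earlier results of these data known.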

Additional observations from a re-analysis of the deposited data

Results flagged for a closer look

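In 6 members a single tumour lay apart from the others of its size class in polysome-minus-total log2 CPM, by the gap to its neighbour relative to the range. Chance flags about 1 in 20 groups, and each member gave 2 groups. Among the 5 large tumours, large replicate 2 had −7.59 for Stx3, from 0 polysome counts, a value that depends on the prior count and is no bound, where the other 4 lay between −3.05 and −1.47. The same tumour had −3.26 for Stx12, where the other 4 lay between −1.46 and −1.24. Large replicate 3 had 4.77 for Rab6a, with 176 CPM in polysomes and 6.43 CPM in total mRNA, where the other 4 lay between 0.04 and 0.86. It had −1.08 for Rab1b, with 822 CPM in polysomes and 1734 CPM in total mRNA, where the other 4 lay between 1.32 and 2.13. Among the 8 small tumours, small replicate 8 had 0.43 for Stx6, where the other 7 lay between −1.67 and −0.80, and small replicate 5 had −7.67 for Rab27a, from 0 polysome counts, where the other 7 lay between −2.64 and 1.69. Without large replicate 3 the log2 fold of Rab6a was 0.46 and its adjusted p 0.0556.

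By the edgeR interaction test the polysome to total fold was higher in batch 2 for 13 members and lower for 5, of which the 11 named for this difference are given. The difference, batch 2 minus batch 1 on the log2 scale, was 4.28 for Rab28, 3.60 for Vamp7, 3.02 for Rab9, 2.32 for Rab8b, 2.08 for Rab6a and 1.96 for Vamp3. It was −2.34 for Rab40c, −2.33 for Rab1b, −2.26 for Rab4b, −1.50 for Rab20 and −1.45 for Vamp2. Tumours carry T numbers in batch 1 and ER or LR names in batch 2, and the labels do not say what else differed between the batches.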

How the results depend on the processing

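Polysome against total mRNA was called in all genes for 1690 higher and 1916 lower in batch 2 alone, with 10 members higher and 11 lower. Rab8b (−0.89) and Rab6a (−0.20) reversed in batch 1 alone, and Rab1b (−0.26), Rab4b (−1.06), Rab14 (0.17) and Rab27a (0.057) in batch 2 alone. Among named members, the calls of Stx2, Stx16, Stx4a, Stx11, Vamp2, Vamp7 and Vamp8 were lost in batch 2 alone with the same sign. Those of Rab2a, Rab7b, Rab11a, Rab24, Rab28 and Rab39 were lost there too. Over all members 21 calls were lost in batch 2 alone, 18 with the same sign. Some members outside the named ones were therefore among them. In batch 1 alone the calls of Vamp8, Rab7b, Rab31 and Rab10 were lost with the same sign. With the GC and length trend removed, Vamp3 (0.86), Rab2a (0.26), Rab11a (0.62) and Rab14 (0.37) reversed. The calls of Rab1b, Rab24, Rab27a, Rab39 and Vamp8 were lost with the same sign. Rab1a, Rab8b, Rab22a and Stx6 passed there but not in the main fit. The cause was not tested. Without the replicate block 16 members were higher and 20 lower, and in the batch difference 11 and 4, and no paired count moved past 1.5 times.

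For size in polysome mRNA, all genes higher numbered 3 without the filter, 1 with log2 weight and 92 with DESeq2 (60 lower, 1 member higher). Leaving out a tumour gave 0 to 39 higher, 0 to 3 lower and 0 to 1 members higher, with each maximum without small replicate 5. For size by RNA source, 8 genes were higher without the filter and 76 with DESeq2 (53 lower, 1 member higher and 1 lower). The batch difference had 1435 genes and 9 members lower with DESeq2 and 8 members higher with the GC and length trend removed. Leaving out a tumour gave 837 to 1314 genes higher, 548 to 1000 lower and 2 to 6 members lower.

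Of the pairs, in batch 1 alone Rab1a minus Rab1b (−2.14) and Vamp2 minus Vamp3 (2.74) passed, Rab8a minus Rab8b reversed to 1.04 and Rab22a minus Rab31 (−0.58) no longer passed. In batch 2 alone, where 6 tumours allow no p under 0.0312 and no pair passed after adjustment, the values were −0.51 for Rab11a minus Rab11b, −0.46 for Rab4a minus Rab4b, 2.18 for Rab5b minus Rab5c, −0.44 for Rab7 minus Rab7b, −0.99 for Vamp7 minus Vamp8 and −2.20 for Rab22a minus Rab31. Vamp2 minus Vamp3 was 1.11 to 1.68 on leaving out a tumour and passed without small replicate 6 or small replicate 7.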
